A study of Mus musculus with 12 samples.

Results

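The 10 cadherins described here hold neighbouring keratinocytes together: the desmogleins Dsg1a, Dsg1b, Dsg1c, Dsg2 and Dsg3, the desmocollins Dsc1, Dsc2 and Dsc3, and the classical cadherins Cdh1 (E-cadherin) and Cdh3 (P-cadherin). They were chosen by name, and all 10 are among the 14533 genes of the count table of mouse epidermis. Epidermis was scraped from frozen, non-lesional dorsal skin of untreated C57BL/6 mice, with 1 RNA-seq library per mouse. The 6 WT mice carried Pparg flox/flox without Cre (K14-Cre -/-), and the 6 Pparg-/-epi mice carried the same floxed alleles with 1 copy of K14-Cre (K14-Cre +/-). Cre is driven here by the keratin 14 promoter, so the deletion covers keratinocytes and their appendages and spares other cells of the scraping, which reached the superficial dermis. Both groups were 8 to 13 weeks old by the labels, although the study's supplement gives other ages for some mice, with 3 females and 3 males among the WT mice and 4 females and 2 males among the Pparg-/-epi mice.

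Desmosomes are spot-like junctions in which desmogleins and desmocollins of adjacent cells bind each other outside the cell and, through plakoglobin, plakophilins and desmoplakin, anchor the keratin filaments inside it. Classical cadherins form adherens junctions, which bind catenins and through them actin. In stratified epidermis the isoforms are layered: desmoglein 3, desmocollin 3 and P-cadherin are known from the basal layer and hair follicle, desmoglein 1 and desmocollin 1 predominate towards the surface, and E-cadherin is found in all living layers. Desmogleins 1 and 3 are the targets of the autoantibodies of pemphigus, and desmoglein 1 is cut by the toxin of staphylococcal scalded skin syndrome. The mouse has several desmoglein 1 genes where humans have 1.

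The 8 desmosomal cadherin genes described here lie in 1 cluster on chromosome 18, from 19960930 to 20604526 of mm10. These desmocollins are on the minus strand and these desmogleins on the plus strand. Cdh3 (chromosome 8, 106510852 to 106556911, 17 exons) and Cdh1 (chromosome 8, 106603368 to 106670246, 16 exons) are neighbours on the plus strand, with 46456 bases between them. Dsg1a, Dsg1b and Dsg1c are near copies. Of all 75-base stretches of the Dsg1a transcript in the GENCODE annotation, 29.15% also occurred in another gene, mainly Dsg1b, compared with 39.68% for Dsg1b, 20.03% for Dsg1c, 3.149% for Dsg2 and 0 for the 6 remaining genes. Reads that mapped to several places were removed by the authors, so the 3 Dsg1 genes are counted mainly on the sequence that tells them apart, and their levels and ratios are uncertain to that extent.

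Values are given as CPM, which are counts divided by the library total and put on a common scale by the TMM method of edgeR, and log2FC is the log2 fold change of Pparg-/-epi over WT. Total counts were 10120840 to 16947632 for WT against 11272135 to 18851255 for Pparg-/-epi mice, so that 1 count was worth 0.0520 to 0.107 CPM. Because the samples are bulk RNA, fewer cells of a type and less RNA per cell cannot be told apart. WT replicate 2 stood apart from the other WT mice in its hair follicle and suprabasal markers. Values without replicate 2 are given where it moved a result. It was not the only such mouse: WT replicate 1 stood apart in its fibroblast markers and WT replicate 5 in its skeletal muscle markers. Each adjusted p is from edgeR's quasi-likelihood test with Benjamini-Hochberg adjustment over all 14533 genes, n = 6 mice in each group, and a gene was called altered where its log2FC was 0.6 or more in size and its adjusted p was under 0.05. Of all genes, 10.3% were altered, 5.19% higher and 5.08% lower. Of the 10 cadherins, 1 was altered: Cdh3, higher in Pparg-/-epi mice. A further gene, Dsg1a, had an adjusted p under 0.05 at a smaller change, so that 2 of 10 passed without the size requirement, as did 15.4% of all genes. Unadjusted, 4 of 10 were under 0.05, as were 29.5% of all genes. In no cadherin were the 2 groups of mice fully apart, as they were in 7.9% of all genes. The log2FC was above 0 for 5 cadherins and below 0 for 5, and its median size was 0.39, against 0.24 over all genes.

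**Figure D1:**
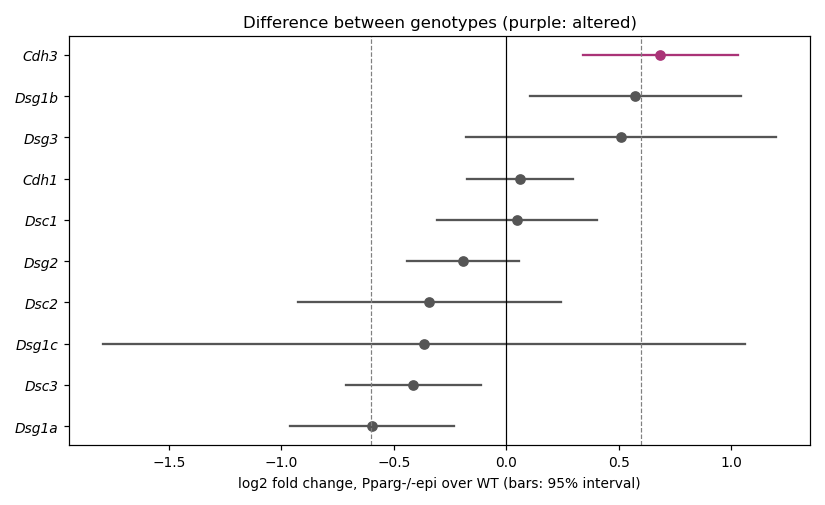
Log2 fold change of each cadherin (x axis, Pparg-/-epi over WT) with its 95% interval from the quasi-likelihood fit of 6 WT and 6 Pparg-/-epi mice. Dashed lines mark the size of 0.6 needed for a call. Cdh3 (purple) is the altered gene, at 0.69, and Dsg1a lies at the opposite end, at -0.60, while the interval of Dsg1c spans -1.79 to 1.06.

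The order of abundance was similar in both genotypes. Divided by the length of the gene model, so that genes can be compared, the levels in WT mice were 499 ± 114 CPM per kb (SD, n = 6) for Dsg1a, 385 ± 76.9 for Dsc3, 211 ± 44.3 for Dsc1 and 190 ± 25.3 for Cdh1. The ranges of Dsg1a and Dsc3 overlapped, although each WT mouse had more Dsg1a than Dsc3, and those of Dsc1 and Cdh1 overlapped with 4 of 6 mice having more Dsc1. The ranges of Dsc3 and Dsc1 did not overlap. A middle group followed at far lower levels, with Dsg3 at 28.8 ± 13.7 CPM per kb, Dsg1b at 23.9 ± 5.87, Dsg2 at 15.6 ± 2.19 and Cdh3 at 12.1 ± 2.58, each overlapping the next. Dsc2, at 3.83 ± 1.60 CPM per kb, and Dsg1c, at 0.354 ± 0.292, were the least abundant and did not overlap their neighbours. In Pparg-/-epi mice the first 4 were again Dsg1a (254 to 384 CPM per kb), Dsc3 (262 to 330), Dsc1 (171 to 293) and Cdh1 (176 to 215), now each overlapping the next. Cdh3, at 19.5 ± 3.40 CPM per kb, stood above Dsg2, at 13.7 ± 1.85, in all 6 Pparg-/-epi mice, while Dsg2 stood above Cdh3 in all 6 WT mice.

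**Figure D2:**
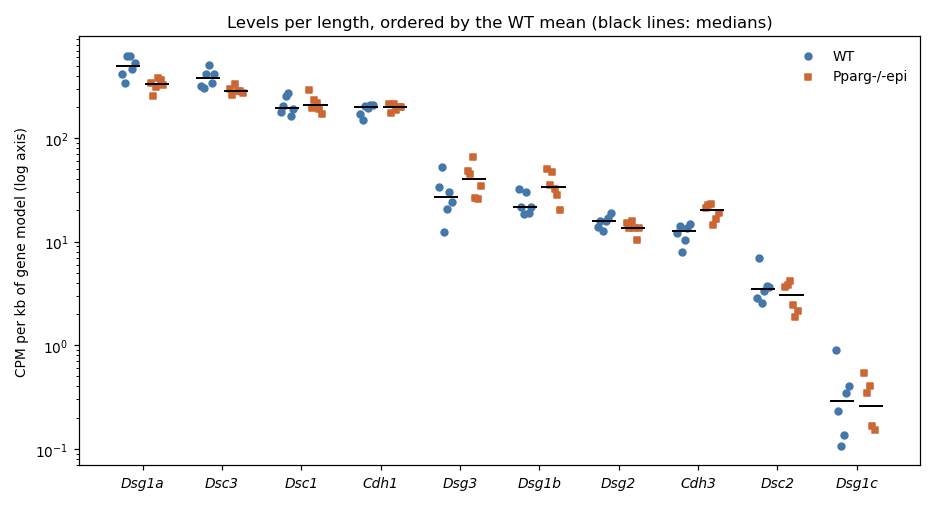
Level of each cadherin in each mouse, in CPM per kb of gene model on a log axis, ordered by the WT mean (blue circles: WT, orange squares: Pparg-/-epi, black lines: medians). A top group of Dsg1a, Dsc3, Dsc1 and Cdh1 stands apart from a middle group of Dsg3, Dsg1b, Dsg2 and Cdh3, and 1 Pparg-/-epi mouse with 0 counts of Dsg1c cannot be drawn.

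Cdh3, the classical cadherin of basal and follicular keratinocytes, rose in Pparg-/-epi mice. It lay between 32.0 and 59.5 CPM (median 51.6) in WT mice, against 58.9 to 93.0 CPM (median 81.6) in Pparg-/-epi mice. The groups overlapped only in that the lowest Pparg-/-epi mouse, replicate 10, lay just under the highest WT mouse, replicate 6, and the other 5 Pparg-/-epi mice were above every WT mouse. The means were 48.8 ± 10.4 and 78.6 ± 13.7 CPM, a 1.61-fold rise (log2FC 0.69, standard error [SE] 0.16, adjusted p = 0.0122). The study lists Cdh3 among the genes it picked from these libraries, so the direction is not independent evidence. Leaving out 1 mouse at a time gave log2FC values of 0.59 to 0.76 with adjusted p of 0.00919 to 0.0399, and without WT replicate 3 the change was just under the size needed for a call. The call was also lost in each subset of the mice, with the log2FC at 0.67 in females (adjusted p = 0.0658), 0.57 in males (0.388), 0.65 in mice with lower name numbers (0.205) and 0.60 in those with higher ones (0.165). The name number is the middle number in a mouse's name, and the sources do not say what it stands for. It was split here at 222 and below (2 WT and 4 Pparg-/-epi mice) and 225 and above (4 and 2). In the higher range all 4 WT mice had number 226 and both Pparg-/-epi mice 225, so number and genotype cannot be told apart there. Only number 222 occurred in both groups, so a split or block by range does not hold the number fixed.

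Cdh1, the E-cadherin that keratinocytes of every living layer carry, lay between 657 and 929 CPM (median 884) in WT mice, against 777 to 950 CPM (median 877) in Pparg-/-epi mice. WT replicates 1 and 2 lay below every Pparg-/-epi mouse, Pparg-/-epi replicates 7 and 9 lay above every WT mouse, and the others overlapped. Its log2FC was 0.06 (SE 0.11, adjusted p = 0.768), with a 95% interval of -0.18 to 0.30.

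Because both classical cadherins are counted in the same library, their ratio does not depend on library scaling. Cdh3 stood at 3.85% to 9.43% of the per-length level of Cdh1 (median 6.71%) in WT mice, against 7.83% to 12.7% (median 9.83%) in Pparg-/-epi mice. Of the Pparg-/-epi mice 4 were above every WT mouse, and of the WT mice 5 were below every Pparg-/-epi mouse. The mean log2 ratio was -3.99 ± 0.44 (SD, n = 6) in WT and -3.36 ± 0.25 in Pparg-/-epi mice, a difference of 0.63 (exact permutation test over 924 splits, two-sided, p = 0.0108). The ratio uses the same Cdh3 counts as the test above and is not separate evidence. Within the lower name numbers the difference was 0.31 (exact permutation p = 0.333) and within the higher ones 0.69 (exact permutation p = 0.133), where 2 mice against 4 cannot give a p under 0.0667.

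**Figure D3:**
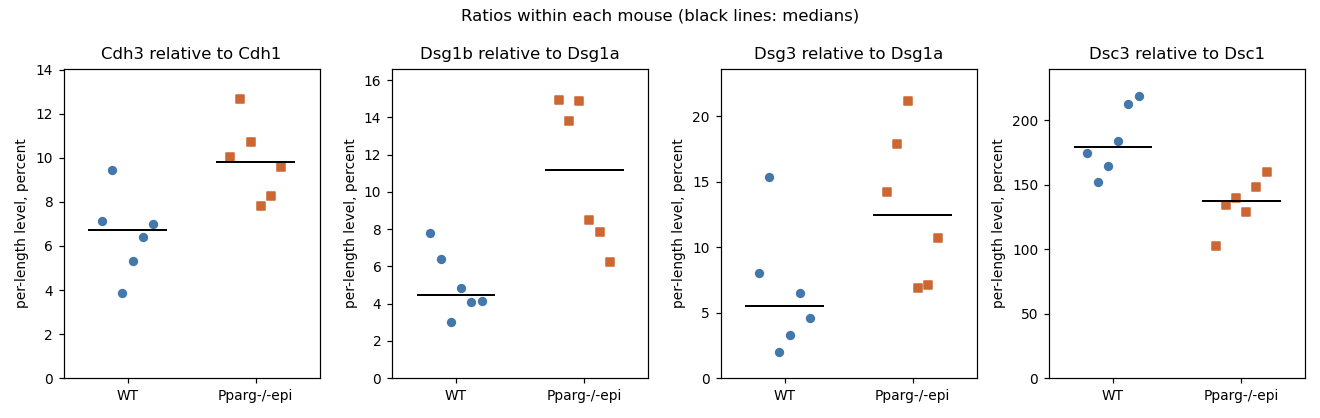
Ratio of 2 cadherins within each mouse, as the per-length level of the first in percent of the second (blue circles: WT, orange squares: Pparg-/-epi, black lines: medians). The median moves from 6.71% to 9.83% for Cdh3 to Cdh1 and from 4.48% to 11.2% for Dsg1b to Dsg1a, and from 180% to 137% for Dsc3 to Dsc1.

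Dsg1a, which gave the most abundant desmoglein transcript, had its lower values in Pparg-/-epi mice. It lay between 1913 and 3512 CPM (median 2787) in WT mice, against 1427 to 2159 CPM (median 1864) in Pparg-/-epi mice. All 6 Pparg-/-epi mice were below the WT median and 4 were below every WT mouse, and the lowest WT mouse was replicate 2. The means were 2805 ± 641 and 1853 ± 253 CPM, 0.660-fold (log2FC -0.598, SE 0.17, adjusted p = 0.0310), which passed the test for p and missed the size of 0.6 by a narrow margin. Leaving out 1 mouse at a time gave -0.70 (without WT replicate 2, adjusted p = 0.00554) to -0.52, past both limits in 6 of 12 such fits and with adjusted p of 0.00554 to 0.0740. With RNA integrity (RIN) as a covariate the adjusted p was 0.0585 and with a name-number block 0.0686, and within the 2 ranges of name numbers the log2FC was -0.22 in the lower (adjusted p = 0.719) and -0.71 in the higher range (0.0444).

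Dsg1b, its neighbour and near copy, had values that leaned the other way. It lay between 63.5 and 110 CPM (median 74.1) in WT mice, against 69.1 to 172 CPM (median 115) in Pparg-/-epi mice. Of the Pparg-/-epi mice 4 were above every WT mouse, and replicate 12 was among the lower WT values. The log2FC of 0.57 (SE 0.22, 95% interval 0.11 to 1.04) did not pass the adjustment (adjusted p = 0.0950). It passed without Pparg-/-epi replicate 12, at 0.69 (adjusted p = 0.0335, with a range of 0.0335 to 0.230 over the 12 mice left out in turn), and was 0.62 within the lower and 0.11 within the higher name numbers. The per-length level of Dsg1b was 3.01% to 7.77% of that of Dsg1a in WT mice against 6.26% to 14.9% in Pparg-/-epi mice, of which 5 were above every WT mouse. That ratio was chosen after its values were seen and is given without a test.

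Dsg3, the basal desmoglein, varied most between mice among the moderately abundant members. It lay between 50.6 and 215 CPM (median 111) in WT mice, against 106 to 272 CPM (median 164) in Pparg-/-epi mice. WT replicate 2 alone held the WT maximum, and the other 5 WT mice were at or below 137 CPM. The log2FC was 0.51 (SE 0.32, adjusted p = 0.318), with a 95% interval of -0.18 to 1.20, and it ranged from 0.30 without Pparg-/-epi replicate 9 to 0.76 without WT replicate 2.

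Dsg2, which is widespread in simple epithelia and heart and sparse in adult epidermis, lay between 72.9 and 108 CPM (median 90.5) in WT mice, against 59.7 to 90.4 CPM (median 78.0) in Pparg-/-epi mice. All 6 Pparg-/-epi mice were below the WT median, but the log2FC of -0.19 (SE 0.12) did not pass (adjusted p = 0.298). Dsg1c was close to the floor of the assay, with 3 to 42 counts in WT libraries against 0 to 31 in the Pparg-/-epi libraries. The mouse with 0 counts was Pparg-/-epi replicate 12, where 3 counts, the limit that a count of 0 allows, are 0.258 CPM. A log2FC of -0.37 (SE 0.66, adjusted p = 0.764) means that a difference in Dsg1c was not detectable at this depth.

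Dsc3, the desmocollin of the basal layers and the second most abundant cadherin, lay between 1644 and 2704 CPM (median 2039) in WT mice, against 1399 to 1765 CPM (median 1521) in Pparg-/-epi mice. The Pparg-/-epi mice were tightly grouped, and 5 of them were below every WT mouse. The means were 2060 ± 411 and 1547 ± 127 CPM, 0.751-fold (log2FC -0.41, SE 0.14, adjusted p = 0.0639), which did not pass. With edgeR's likelihood ratio test, which the study's methods use, the adjusted p was 0.0428 and with DESeq2 0.0114, in both cases at a change too small for a call, as it was without WT replicate 2 (-0.49, adjusted p = 0.0215). Within the 2 ranges of name numbers the log2FC was -0.08 in the lower (adjusted p = 0.894) and -0.60 in the higher range (0.0773).

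Dsc1, the desmocollin of the upper layers, lay between 809 and 1374 CPM (median 985) in WT mice, against 858 to 1466 CPM (median 1037) in Pparg-/-epi mice. Pparg-/-epi replicate 7 lay above every WT mouse and WT replicate 5 below every Pparg-/-epi mouse, and the others overlapped, with a log2FC of 0.05 (SE 0.16, adjusted p = 0.885, 95% interval -0.31 to 0.40). Dsc2, the most widespread desmocollin outside the epidermis, lay between 11.2 and 30.7 CPM (median 15.4) in WT mice, against 8.32 to 18.5 CPM (median 13.5) in Pparg-/-epi mice. Its log2FC was -0.34 (SE 0.27, adjusted p = 0.444) and -0.10 without WT replicate 2, which held the maximum.

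**Figure D4:**
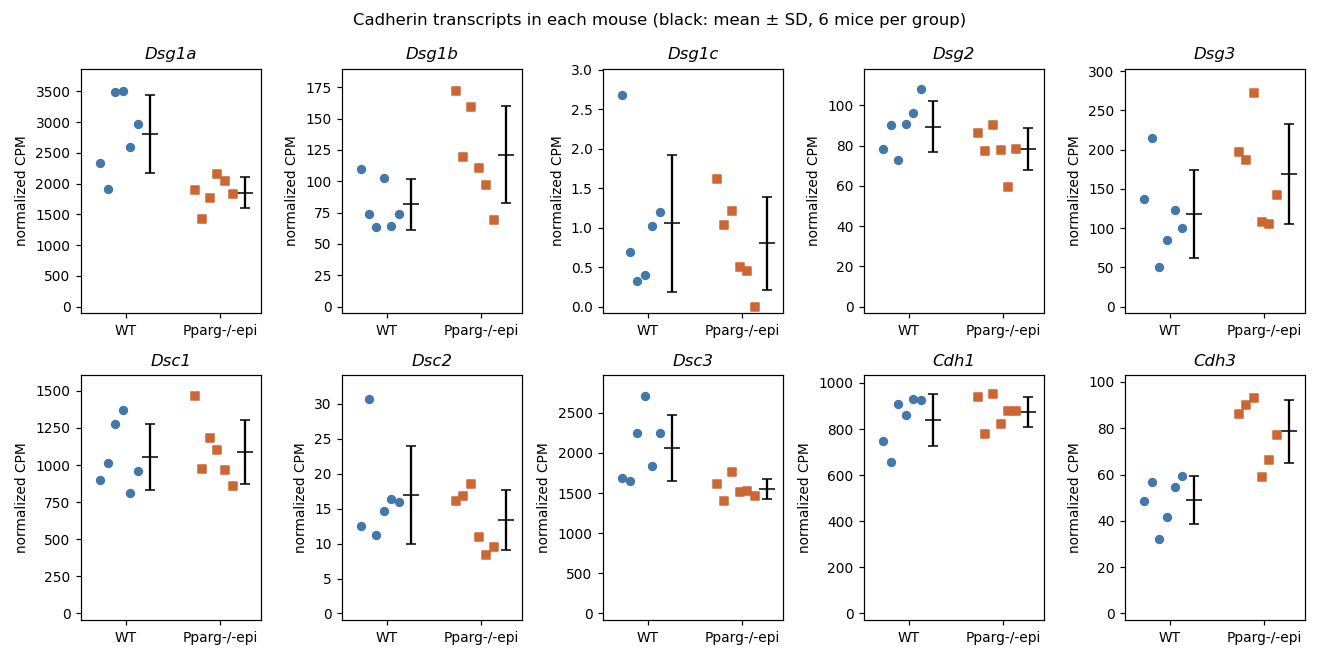
Normalized CPM of each cadherin in each mouse (blue circles: WT, orange squares: Pparg-/-epi, black: mean ± SD, n = 6 per group, linear axes that include 0). For Cdh3 5 Pparg-/-epi mice sit above all WT mice, for Dsc3 5 sit below all WT mice, and Dsc1 and Cdh1 have most mice of both groups within the same range.

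Summed by family and per length, the desmogleins came to 567 ± 101 CPM per kb (SD, n = 6) in WT and 420 ± 42.1 in Pparg-/-epi mice, and the desmocollins to 600 ± 115 and 510 ± 60.6. Of the Pparg-/-epi mice 3 were below every WT mouse in each of these sums. The classical cadherins came to 202 ± 24.9 and 217 ± 16.4 CPM per kb. Within the desmogleins the share of Dsg1a was 87.2% ± 5.09 in WT and 78.3% ± 6.19 in Pparg-/-epi mice, while Dsg1b held 4.33% ± 1.31 and 8.46% ± 2.45 and Dsg3 5.58% ± 3.68 and 9.87% ± 3.72. Within the desmocollins Dsc3 held 64.2% ± 3.30 and 57.0% ± 3.76 and Dsc1 35.2% ± 3.16 and 42.4% ± 3.71. Every WT mouse had 152% to 219% as much Dsc3 as Dsc1 per length, and Pparg-/-epi mice 103% to 160%. These sums, shares and ratios were not planned and are given without tests.

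The pattern over single mice was shared by several members. Pparg-/-epi replicates 7, 8 and 9, all female and all with lower name numbers, had the 3 highest values of their group for Dsg1b, Dsg1c, Dsg3, Dsc2 and Cdh3. The same 3 mice had the 3 highest sums in their group of hair follicle (647 to 4930 CPM), melanocyte (97.8 to 238 CPM) and endothelial markers (152 to 188 CPM). They also had the 3 lowest sums of basal (11323 to 14981 CPM) and suprabasal keratinocyte markers (23941 to 39401 CPM), and RIN values of 7.7 to 8.6. Sex, name number and RIN did not set them apart: replicate 10 also had a lower name number and a RIN of 7.7, and replicate 11 was also female. For Dsg1a, replicates 8 and 9 instead had the lowest values of the group (1427 and 1765 CPM). The part of these traits and marker sums in the pattern was not tested. After subtraction of the mean of each genotype, Pearson's r over the 12 mice on log2 CPM was 0.85 between Dsg3 and Cdh3, 0.84 between Dsg3 and Dsc2, 0.79 between Dsg1a and Dsc3, 0.77 between Dsg1b and Dsg1c, 0.70 between Dsg2 and Cdh3, 0.68 between Cdh1 and Dsg1a and 0.67 between Dsc1 and Dsc3. These pairs were picked, as the highest r of each cadherin with any other cadherin of the family. The remaining pairs are not given, so the values do not show how alike the family was as a whole. The values describe 12 libraries whose tissue composition and RNA quality also vary, and carry no test.

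Outside the family, the genes most alike by the same measure were Cntfr (r = 0.96), a cytokine receptor subunit, Cdyl2 (0.94) and Oacyl (0.93) for Cdh3. For Dsg3 they were Myh9 (0.97), the heavy chain of non-muscle myosin, Npy4r (0.96) and Ece1 (0.96), and for Dsc2 Wnt5b (0.98), a Wnt ligand, Rai1 (0.95) and Plekha7 (0.94), a protein of adherens junctions. Dsg1a was most like Pdxdc1 (0.96), Ccdc62 (0.96) and Ano10 (0.95), and Dsc3 like Tnik (0.94), Rab8b (0.92) and Frmd4b (0.90). The closest to Dsg1b were Tmem194 (0.93), Erlin2 (0.92) and Dock1 (0.92), and to Dsg1c Stx11 (0.97), Focad (0.96) and Rnf26 (0.94). Dsg2 was followed most closely by Scin (0.90), Ric3 (0.89) and Tcp11 (0.82), Dsc1 by Kdm1b (0.88), Efcab14 (0.86) and Hace1 (0.85), and Cdh1 by Ank3 (0.94), a membrane scaffold, Bms1 (0.89) and Stambp (0.89). Each was picked as the highest over all other genes in the table from only 12 mice. Oacyl, Npy4r and Tcp11 were close to the floor of the assay, at means of 0.56, 0.60 and 1.42 CPM.

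Of 48 genes in 4 lists of cadherin partners and regulators, 4 were altered (8.33%, against 10.3% of all genes), all lower. Unadjusted, 10 (20.8%) had a p under 0.05, against 29.5% of all genes, so neither share was above that of the whole table. Among the 11 plaque and desmosome genes, 0 were altered by edgeR's quasi-likelihood test, by its likelihood ratio test or by DESeq2, and 0 had an unadjusted p under 0.05, with a median log2FC of -0.14. Dsp, desmoplakin, the link to keratin, had 5273 ± 660 CPM in WT and 5267 ± 1217 in Pparg-/-epi mice (adjusted p = 0.997). Perp, a membrane protein of desmosomes, had 4580 ± 1336 and 3666 ± 739 CPM (log2FC -0.32, adjusted p = 0.355). The plaque list also holds Dsg4, a desmoglein outside the 10 cadherins and their family sums (log2FC 1.20, SE 1.08, adjusted p = 0.509). Of the 12 catenin and adherens junction genes, Pvrl3 and Ctnnd2 fell. In this list 6 of 12 had an unadjusted p under 0.05, against 29.5% of all genes, and 3 an adjusted p under 0.05. The third, Pvrl1, was higher at a change too small for a call (log2FC 0.40, adjusted p = 0.0173). Pvrl3, which encodes the adhesion protein nectin-3, lay at 124 to 349 CPM in WT mice against 26.9 to 79.6 CPM in the knockouts (log2FC -2.31, SE 0.34, adjusted p = 0.00106), and its groups did not overlap. Ctnnd2, a catenin of the p120 family, was at 20.8 ± 4.14 and 11.5 ± 1.25 CPM (log2FC -0.86, SE 0.15, adjusted p = 0.00274). The 2 most abundant genes of that list by the mean over all 12 mice, Mllt4 (afadin, log2FC -0.19, adjusted p = 0.419) and Ctnnb1 (beta-catenin, 0.29, adjusted p = 0.113), did not pass.

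Of the 9 further cadherins measured, Cdh4 and Cdh17 fell. Cdh4, R-cadherin, was at 54.8 to 93.6 CPM for WT against 16.6 to 21.1 for Pparg-/-epi mice, fully apart (log2FC -1.90, SE 0.12, adjusted p = 1.04e-05). Cdh17 was scarce, at 1.58 ± 0.640 and 0.577 ± 0.245 CPM (log2FC -1.43, adjusted p = 0.0305). It passed in only 6 of 12 fits that left out 1 mouse (adjusted p up to 0.0695) and missed with RIN as a covariate (0.0526) or a name-number block (0.0749). Cdh13, the most abundant of these, had a log2FC of -0.13 (adjusted p = 0.553). Among 16 transcription factors, proteases and protease inhibitors that act on cadherins, 0 were altered by either edgeR test or DESeq2 and 2 had an unadjusted p under 0.05. The most abundant were Spink5, an inhibitor of the kallikreins that cut desmosomes at the skin surface, at 3056 ± 859 and 2175 ± 594 CPM (log2FC -0.49, adjusted p = 0.176), and Klk7, such a kallikrein, at 1772 ± 424 and 2397 ± 538 CPM (0.44, adjusted p = 0.157). With a name-number block Klk7 was altered, at 0.60 (adjusted p = 0.0227).

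Markers of other cell types varied between libraries beside these results. Keratinocyte markers were abundant in every library: the summed basal markers stood at 9734 to 17410 CPM for WT against 11323 to 16288 for Pparg-/-epi mice, and the suprabasal markers at 15864 to 46558 and 23941 to 50170 CPM. Among basal markers Krt14 rose (log2FC 0.98, adjusted p = 0.00559) and Krt15 fell (-1.74, adjusted p = 0.00106), and among suprabasal markers Ivl rose (1.00, adjusted p = 2.32e-04). Hair follicles are a known site of Cdh3 and Dsg3, and the 17 follicle markers summed to 66.8 to 2392 CPM in WT (median 214) and 239 to 4930 in Pparg-/-epi mice (median 611), with 0 of 17 altered, 0 under an unadjusted p of 0.05 and 5 at 0 counts in some mouse. Their part in the rise of Cdh3 was not tested. The WT mouse with the highest follicle sum was replicate 2, which also had the lowest suprabasal sum. WT replicate 1 had a fibroblast marker sum of 38828.5 CPM, against 1204.97 to 11400.2 CPM in the other WT mice. WT replicate 5 had a skeletal muscle marker sum of 9762.32 CPM, against 11.2037 to 253.88 CPM in the other WT mice. The part of these sums in the cadherin results was not tested. Sebaceous gland markers were altered in 7 of 11 cases, all lower, melanocyte markers in 1 of 7 (Kit, higher), Langerhans cell markers in 1 of 7 (Epcam, higher), endothelial markers in 1 of 7 (Emcn, higher), and fibroblast and skeletal muscle markers in 0 of 7 each (0 and 4 at an unadjusted p under 0.05 in the same edgeR test). Beside these counts, the median log2FC was 1.46 for melanocyte, 1.14 for endothelial, -0.13 for Langerhans cell, -0.06 for fibroblast and -3.81 for skeletal muscle markers. The endothelial markers were all higher, at log2FC 0.59 to 1.79, and summed to a median of 26.2 CPM in WT and 115 in Pparg-/-epi mice. RIN was 5.9 to 8.6 for WT against 5.7 to 8.6 for Pparg-/-epi mice. By name number it was 7.4 to 8.6 in the lower range (2 WT and 4 Pparg-/-epi mice) and 5.7 to 7.1 in the higher range (4 and 2). The fits with RIN and with the name-number block are therefore not separate checks. Pparg itself does not check the labels. Gene counts do not separate the shortened transcript that Cre leaves from the full one, and the scrapings also held cells that Cre spares. Pparg counts were 5 to 269 in WT libraries against 16 to 107 in Pparg-/-epi libraries.

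For no cadherin did the genotype difference differ detectably between the sexes in the interaction fit of edgeR (adjusted p of at least 0.895 for each). Over all genes 0 had an adjusted p under 0.05 for this interaction and 741 an unadjusted p under 0.05.

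**Figure D5:**
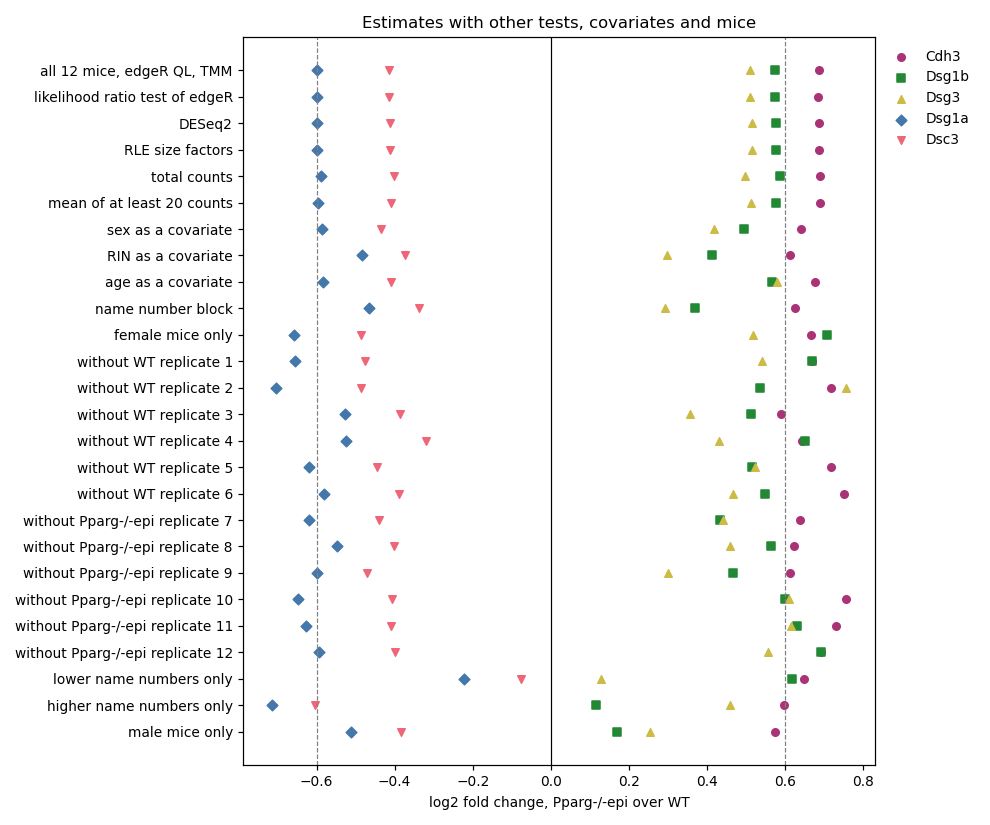
Log2 fold change (x axis, Pparg-/-epi over WT) of the 5 cadherins with the largest changes among those well counted, under each test, normalization, covariate and subset of mice (y axis), with dashed lines at the size of 0.6. The 5 kept their direction throughout, and Cdh3 stayed between 0.57 and 0.76, whereas Dsg1b, Dsg3, Dsg1a and Dsc3 moved over wider ranges.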

How the data were processed

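The authors sequenced mRNA libraries of 12 mice, aligned reads to mm10 with STAR 2.5.2b, discarded multi-mapped ones and assigned the rest to genes with featureCounts of Subread 1.5.1. The deposited values are raw counts per gene, without normalization. The strand setting is not given in the sources used here. The table lists 14533 genes, each above 0.5 CPM in at least 6 mice, and 2800 blank rows were dropped. Samples were grouped by the genotype in the labels.

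Counts were fitted with edgeR 4.0.16 (R 4.3.3; TMM, quasi-likelihood test, genotype as the only term) over all genes. Alternatives were edgeR's likelihood ratio test, DESeq2 1.42.0, other size factors, a mean of at least 20 counts, sex, RIN, age by the labels or the middle number of the mouse name (a block of lower against higher numbers) as a term, female mice only, and leaving out each mouse; subsets by that number and males were added after seeing the data. The ratio of Cdh3 to Cdh1 was compared with an exact permutation test. Standard errors were derived from the quasi-likelihood test, as the size of the log2FC divided by the square root of its F statistic. Intervals of 95% used these standard errors with the residual plus prior degrees of freedom of the quasi-likelihood fit. The code was tested on simulated data. Likeness was computed on log2 CPM (prior count 2). Shared sequence was measured on GENCODE M21 transcripts. Named genes were the 10 cadherins, Pparg, the altered and the 2 most abundant genes (mean of all mice) of each junction list, and the 3 genes most like each cadherin. The junction genes Pvrl1 and Dsg4 are named in addition. Of the marker lists only altered genes are named, and not all of them. The cadherins and gene lists were chosen with earlier results of these data known.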

Additional observations from a re-analysis of the deposited data

Results flagged for a closer look

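In each genotype the 10 cadherins were checked for a mouse far from the other 5 of its group by Dixon's test, which flags about 1 group in 20 by chance, and 2 of 20 groups were past its critical value of 0.625. Both were WT mice. WT replicate 2 had 30.7 CPM of Dsc2, where the next highest WT mouse had 16.4 CPM. It is the WT mouse with the highest hair follicle marker sum and the lowest suprabasal sum, and without it the log2 fold change of Dsc2 was -0.10. WT replicate 1 had 2.68 CPM of Dsg1c, more than double the next highest WT mouse, and without it the log2 fold change of Dsg1c was 0.15. The cause of either value was not tested.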

How the results depend on the processing

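With all 12 mice, the other tests, size factors, count filter and single covariates left the number of altered cadherins at 1. In subsets of mice by sex or by lower and higher name numbers, where fewer mice were fitted, 651 genes of the whole table were altered in females, 18 in males, 131 with lower and 1086 with higher name numbers. No cadherin was altered in females, males or mice of lower numbers (0 in each), and 1 junction gene each was altered in males and in mice of lower numbers. Cdh3 missed the call at 0.67 in females, 0.57 in males, 0.65 at lower and 0.60 at higher numbers, and Dsg1a passed at -0.71 at higher numbers. The log2 ratio of Cdh3 to Cdh1 differed by 0.55 in females (exact permutation p = 0.0857), 0.31 at lower and 0.69 at higher numbers. Small values changed sign: Dsc1 to -0.017 with RIN, -0.29 at higher numbers and -0.039 in males, Cdh1 to -0.058 at higher numbers and -0.037 in males, Dsg1c to 0.50 in females, Dsp to 0.0090 by total counts, 0.0016 with the filter, 0.13 in females and 0.076 at lower numbers, Perp to 0.10 at lower numbers, Cdh13 to 0.055 in females and 0.059 at higher numbers, Mllt4 to 0.061 in males, and Pparg to 0.35 with age and 0.52 at higher numbers. Cdh17 missed the call with RIN, with the block and in females, and in 6 of 12 fits without 1 mouse. The cause was not tested.

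Leaving out 1 mouse at a time gave 1116 (without Pparg-/-epi replicate 9) to 2249 (without WT replicate 2) altered genes, 0 (without WT replicate 3) to 2 altered cadherins and 3 to 5 junction genes. Log2 fold changes ranged over -0.70 to -0.52 for Dsg1a, 0.43 to 0.69 for Dsg1b, -0.71 to 0.15 for Dsg1c, -0.26 to -0.13 for Dsg2, 0.30 to 0.76 for Dsg3, -0.069 to 0.14 for Dsc1, -0.48 to -0.097 for Dsc2, -0.49 to -0.32 for Dsc3, -0.017 to 0.091 for Cdh1, 0.59 to 0.76 for Cdh3, -0.11 to 0.049 for Dsp, -1.62 to -1.25 for Cdh17 and -0.32 to 0.86 for Pparg (without WT replicate 2), and over 0.49 to 0.75 for the ratio of Cdh3 to Cdh1. Dsg1c could not be fitted under the filter of a mean of 20 counts, and its depth, 0 to 42 counts, limits any statement on it. No paired analysis was possible because the replicate numbers are serial, no label pairs siblings, and the 2 groups share only 1 name number (1 mouse of each).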
